A study of Mus musculus with 23 samples.

Results

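H3K27ac enhancers that were listed in the anterior cingulate cortex (ACC) and the lateral entorhinal cortex (LEC), and in neither the retrosplenial cortex (RSC) nor the medial entorhinal cortex (MEC), numbered 4276. They were found by merging the H3K27ac enhancer lists of the 4 subregions wherever regions overlapped by at least 1 bp, which gave 42115 elements. The members are those with at least 1 ACC region and at least 1 LEC region and with no region from RSC or MEC. They made up 10.2% of all elements (Wilson 95% interval 9.87 to 10.4), beside 9.98% for the elements of ACC and RSC only and 3.51% for those of RSC and LEC only. Among the 11440 elements with exactly 2 subregions, 37.4% (36.5 to 38.3) were members. The members were chosen by their H3K27ac positions, so these counts, the widths and the spacing below are descriptions and carry no test.

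H3K27ac is the acetylated form of lysine 27 on histone H3, which is laid down by the acetyltransferases p300 and CBP and marks active enhancers and promoters. H3K4me2 is the dimethylated form of lysine 4, which is found at active enhancers and also at enhancers that are accessible but carry no acetylation. The ACC is a midline frontal area that is engaged in attention, affect and action selection. The LEC is a periallocortical area that passes information on objects and odours to the hippocampus, while the MEC holds grid cells and the RSC links the hippocampal formation with spatial and visual cortex.

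All groups came from C57BL6J mice at postnatal day 56, with no genetic or drug treatment named in the labels. The subregions were cut bilaterally from unstained sections of 500 µm, guided by tissue architecture, and frozen. The labels give 2 libraries for each subregion and mark, with 1 for MEC H3K4me2, and 2 input libraries per subregion. The deposited lists hold 1 set of regions per subregion and mark and no value per library, so no spread between animals and no test over animals was possible, and the depth is unknown. The H3K27ac enhancer lists held 10951 regions for MEC, 22973 for LEC, 24272 for RSC and 27909 for ACC, so fewer regions were there to be found in MEC. Whole tissue was used, so a mark in few cells and a weak mark in many cells cannot be told apart. No mm9 annotation was used here, so the dissections were not checked against marker genes, and regions are named by position (mm9, counted from 1) and by no gene.

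The members took 15.5% (15.0 to 15.9) of the regions of the ACC list, 4313 regions covering 10.05 Mb. They took 18.8% (18.3 to 19.3) of the LEC list, 4322 regions covering 9.54 Mb. Most members were a simple pair: 4196 of the 4276, or 98.1%, joined 1 ACC region with 1 LEC region. The joined elements had a median width of 2275 bp, with the middle 50% of them between 1625 and 3350 bp. This lay close to the median of 2250 bp of the ACC-and-RSC-only elements and of 2400 bp of the RSC-and-LEC-only elements.

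The members were about as wide in ACC as in LEC. The widest ACC region of a member had a median width of 1850 bp and the widest LEC region 1825 bp. Individual members ranged from 550 bp to 55250 bp in ACC and from 525 bp to 28100 bp in LEC. The ACC region was the wider of the pair in 2251 members and the LEC region in 1932, with 93 of equal width, and the median difference was 50 bp. Widths were within 1.25 times of each other in 1898 members. ACC was at least 2 times as wide in 406 members and LEC in 354. The regions also lay in the same place: a median of 72.2% of an element was inside both lists, and the midpoints of single pairs were a median of 175 bp apart.

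**Figure D1:**
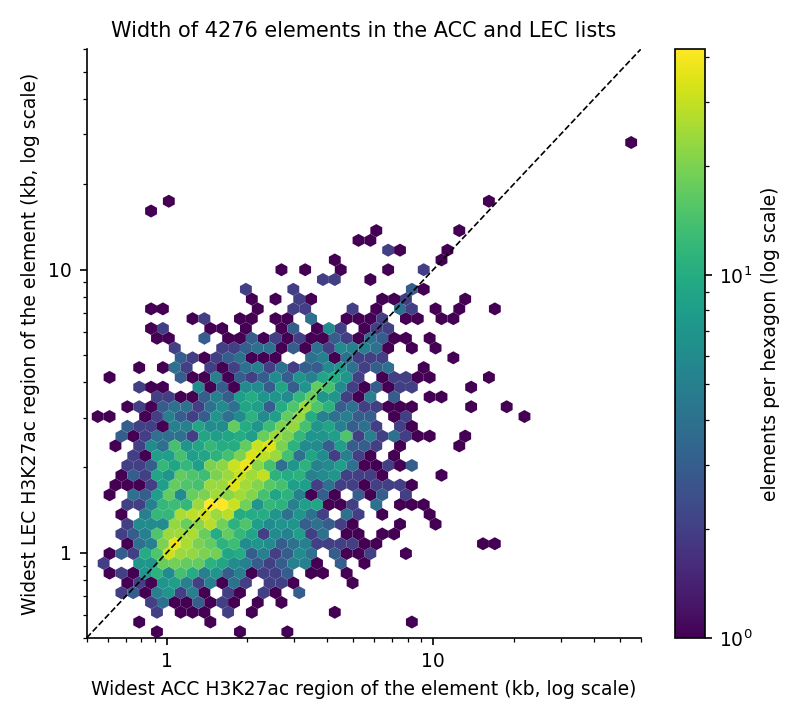
Width of the widest ACC region (x axis, kb, log scale) against the widest LEC region (y axis, kb, log scale) in each of the 4276 elements, with the number of elements per hexagon in colour and equal widths on the dashed line. Most elements lie along the line between 1 and 5 kb, and 1 element reaches 55.2 kb in ACC and 28.1 kb in LEC.

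In both lists the members held an intermediate place between elements of a single subregion and those of all 4. ACC regions in elements of ACC alone had a median width of 1225 bp, and the widest ACC regions in elements of all 4 subregions 4225 bp. For LEC the medians were 1550 bp in elements of LEC alone and 3700 bp in elements of all 4. Members of at least 10000 bp numbered 43, and 74 were under 1000 bp.

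Few members depended on the edge of the rule. The smallest overlap between ACC and LEC was 75 bp, at chr10:79000476-79002050, where ACC had a region of 1000 bp and LEC one of 650 bp, and 11 members shared under 500 bp. Just outside, 4 elements of ACC alone had an element of LEC alone within 500 bp. An RSC or MEC enhancer region lay within 500 bp of 9 members. Conversely, 15 elements with overlapping ACC and LEC regions were left out because of at most 500 bp of RSC or MEC sequence.

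The enhancer lists leave out some regions of the full H3K27ac lists by a criterion the labels do not give, so an element could be missing from the RSC enhancer list and still be acetylated there. This was rare among the members. The full RSC list overlapped 120 members, or 2.81% (2.35 to 3.35), where it overlapped 11.9% of all elements without an RSC enhancer region. The full MEC list overlapped 26 members, or 0.608% (0.415 to 0.889), against 0.976% of all elements without a MEC enhancer region. Both of these comparison sets include elements with an enhancer region of the other of RSC and MEC, which the members lack by rule. The next comparison leaves such elements out. Either list overlapped 124 members, or 2.90% (2.44 to 3.45), against 5.76% of all elements with no enhancer region of RSC or MEC. For the ACC-and-RSC-only elements, the share overlapped by the full LEC or MEC list was 4.66% (4.06 to 5.34). For RSC-and-LEC-only elements, the share overlapped by the full ACC or MEC list was 28.5% (26.3 to 30.9). The remaining 4152 members had no H3K27ac region of any kind in RSC or MEC.

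Where such an overlap existed it was usually large: 117 of the 124 members were covered by at least 50% and 69 were covered whole. Wide members were affected more often, with 5 of the 43 members of at least 10000 bp, or 11.6% (5.07 to 24.5), against 13 of the 816 under 1500 bp, or 1.59% (0.933 to 2.71). No share of other elements of the same widths was set beside these, so the difference is not shown to be particular to the members. The 124 members had a median width of 3150 bp, against 2250 bp for the others.

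H3K4me2, which the rule did not use, was listed most often in the subregions that carried the acetylation. ACC H3K4me2 enhancer regions overlapped 2833 members, or 66.3% (64.8 to 67.7), where they overlapped 51.1% of all 42115 elements. LEC H3K4me2 overlapped 2584 members, or 60.4% (59.0 to 61.9), against 43.5% of all elements. RSC H3K4me2 overlapped 1817 members, or 42.5% (41.0 to 44.0), which was near the 44.3% of all elements, and MEC H3K4me2 overlapped 775, or 18.1% (17.0 to 19.3), near 19.5%. Over all widths the members thus lay above the level of all elements in ACC and LEC and close to it in RSC and MEC. Within the bins of width given further on, the closeness held in the middle bin and not in the narrow and wide bins. With each H3K4me2 list cut to its 15041 widest regions, LEC stood at 37.2% and ACC at 34.4%, so their order changed, and RSC stood at 23.7%. All elements were then at 28.05% in LEC, 28.9% in ACC and 28.7% in RSC. All elements include those that the H3K27ac of RSC or MEC brought in, so this is not a background free of those subregions. Elements of ACC alone and of LEC alone have no RSC or MEC enhancer region either. RSC H3K4me2 was at 27.6% and 22.1% of these, and MEC H3K4me2 at 8.80% and 9.10%. ACC H3K4me2 was at 44.7% and 33.5%, and LEC H3K4me2 at 28.7% and 42.8%. The members lay above both sets in all 4 subregions. Both sets were narrower, with median widths of 1225 bp and 1550 bp against 2275 bp. The labels number the H3K27ac and H3K4me2 libraries alike, so the marks may come from the same dissections.

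**Figure D2:**
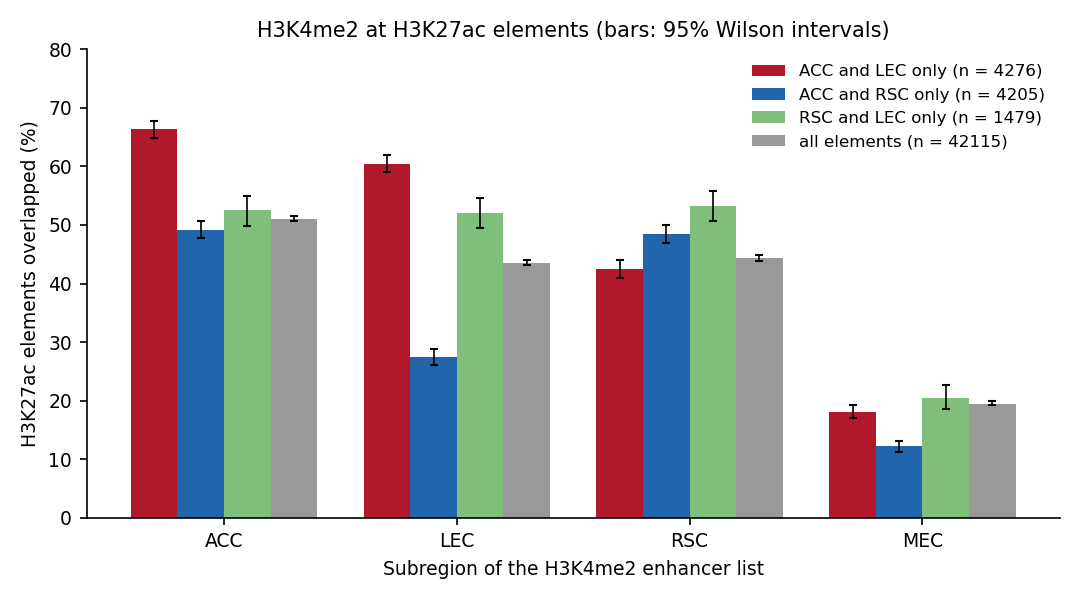
Share of H3K27ac elements overlapped by an H3K4me2 enhancer region (y axis, %) of each subregion (x axis), for elements of ACC and LEC only, of ACC and RSC only, of RSC and LEC only, and all elements, with Wilson 95% intervals. The elements of ACC and LEC only stand at 66.3% and 60.4% in ACC and LEC and at 42.5% in RSC, and those of ACC and RSC only at 27.4% in LEC.

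Between LEC and RSC, whose H3K4me2 lists were of similar length (29125 and 28675 regions), the members and the ACC-and-RSC-only elements were mirror images. In the members, 1119 carried H3K4me2 of LEC and not RSC and 352 of RSC and not LEC. In the ACC-and-RSC-only elements 250 carried LEC without RSC and 1133 carried RSC without LEC. Over all elements the counts were nearly level, at 5655 and 5981. The mirror was not exact, since RSC H3K4me2 stayed at 42.5% of the members, while LEC H3K4me2 was at 27.4% (26.1 to 28.8) of the ACC-and-RSC-only elements. In the RSC-and-LEC-only elements the shares of ACC, RSC and LEC were 52.5%, 53.3% and 52.1%, so ACC H3K4me2 was as frequent there as that of RSC and LEC. These elements have no ACC H3K27ac enhancer region, but a full-list ACC H3K27ac region overlapped 28.1% (25.8 to 30.4) of them.

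Single members showed all 16 possible combinations of H3K4me2, and a few of these held most of them. H3K4me2 of ACC and LEC together was found at 2149 members, or 50.3% (48.8 to 51.8), against 34.9% of all elements. In 777 of these, 18.2% (17.0 to 19.4) of the members, it was in ACC and LEC alone, the same pattern as the acetylation, against 7.31% of all elements and 3.54% (3.03 to 4.15) of the ACC-and-RSC-only elements. A further 855 members, a share with an interval of 18.8 to 21.2%, carried H3K4me2 in ACC, RSC and LEC, against 15.4% of all elements. The 429 members with H3K4me2 in all 4 subregions, 10.03%, were near the 10.6% of all elements. ACC alone had it at 390 members, or 9.12% against 6.81%, and LEC alone at 229, or 5.36% against 3.88%.

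At the other end, 880 members, or 20.6% (19.4 to 21.8), had no H3K4me2 enhancer region in any subregion, against 33.1% of all elements. With the full H3K4me2 lists 833 members, or 19.5% (18.3 to 20.7), remained without the mark, against 30.03% of all elements. Members without the mark were somewhat narrower, with a median of 2025 bp for the 880, against 2475 bp for the members with H3K4me2 in ACC and LEC. H3K4me2 in RSC or MEC without H3K4me2 in ACC or LEC was found at 128 members, or 2.99% (2.52 to 3.55), against 7.27% of all elements. An H3K4me2 enhancer region of RSC or MEC overlapped 2000 members, or 46.8% (45.3 to 48.3), slightly below the 48.9% of all elements.

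**Figure D3:**
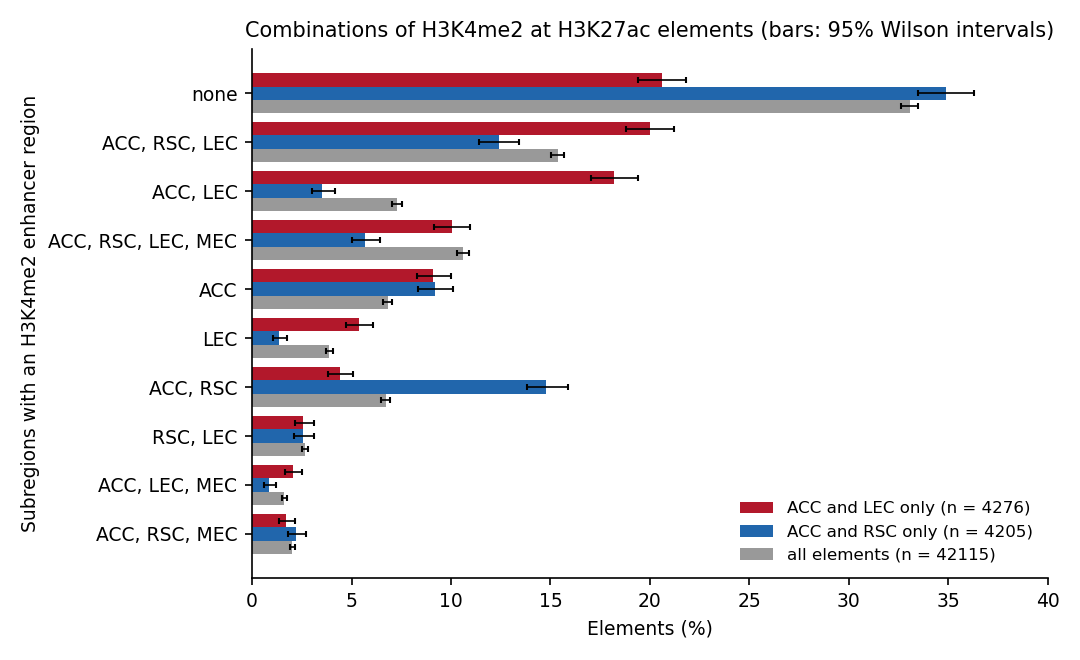
The 10 most frequent combinations of subregions with an H3K4me2 enhancer region in the members (y axis), as a percentage of elements (x axis), for elements of ACC and LEC only, of ACC and RSC only and all elements, with Wilson 95% intervals. The combination of ACC and LEC alone holds 18.2% of the elements of ACC and LEC only and 3.54% of those of ACC and RSC only.

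Summed over the members, H3K4me2 also covered more bases in ACC and LEC. ACC H3K4me2 enhancer regions covered 47.0% of the bases of all members and LEC ones 40.1%, against 24.6% for RSC and 5.96% for MEC. In the RSC-and-LEC-only elements ACC H3K4me2 covered 39.8%, LEC 36.8% and RSC 34.8%, so ACC was highest there without an ACC H3K27ac enhancer region. In the ACC-and-RSC-only elements these were 33.6%, 16.6% and 30.3%. The whole H3K4me2 enhancer lists held 72.1 Mb for ACC, 57.7 Mb for LEC, 54.1 Mb for RSC and 14.5 Mb for MEC. Where a member was overlapped at all, the median covered length was 1625 bp for ACC, 1575 bp for LEC, 1425 bp for RSC and 825 bp for MEC. The MEC H3K4me2 regions were narrow throughout, with a median of 750 bp in the whole list against 1500 to 1600 bp in the others, and that list rests on 1 library.

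LEC H3K4me2 was more frequent than that of RSC in all 3 bins of width, also in the middle bin at 58.8% against 40.7%. H3K4me2 of ACC, LEC and RSC was more frequent in wider members. It went from 57.6% in ACC and 51.5% in LEC under 1500 bp to 75.4% and 68.5% at 3000 bp or wider. In RSC it went from 38.8% to 47.6% over the same widths, while in MEC it went down from 21.4% to 16.95%. All elements differed more by width, with ACC H3K4me2 at 33.7% of the narrow and 69.2% of the wide ones. For LEC these were 26.9% and 61.1%, for RSC 27.5% and 62.5%, and for MEC 10.6% and 29.3%. Narrow members thus lay above all elements of their width in the 4 subregions. Members of 3000 bp or wider lay above all elements of that width in ACC and LEC and below them in RSC and MEC. The middle bin, 1500 to under 3000 bp, held 2115 members. There RSC stood at 40.7% against 41.3% of all elements and MEC at 17.6% against 17.9%. ACC stood at 63.8% against 48.5% in that bin, and LEC at 58.8% against 40.9%. Among members under 1500 bp, 27.5% had no H3K4me2 enhancer region, and among those of 3000 bp or wider 13.5%. The ACC-and-RSC-only elements of the same widths had 26.8% and 33.5% in LEC and 41.3% and 56.5% in RSC.

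ACC H3K4me2 differed between members that were much wider in ACC and members that were much wider in LEC, and LEC H3K4me2 hardly did. In the 406 members at least 2 times as wide in ACC, ACC H3K4me2 was present in 71.2% (66.6 to 75.4) and LEC in 60.3% (55.5 to 65.0). In the 354 members at least 2 times as wide in LEC, ACC H3K4me2 was present in 55.4% (50.2 to 60.5) and LEC in 62.7% (57.6 to 67.6). The first set had 71 members with H3K4me2 in ACC and not LEC and 27 the other way, and the second set had 42 and 68. The LEC intervals overlapped. RSC H3K4me2 differed in the same direction as that of ACC, at 46.8% (42.0 to 51.7) in the first set and 33.9% (29.2 to 39.0) in the second.

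Nearness to an RSC enhancer did not go with more RSC H3K4me2. The nearest RSC H3K27ac enhancer region was a median of 20225 bp from a member. Of the 769 members within 5 kb of one, 36.0% (32.7 to 39.5) carried RSC H3K4me2, against 46.4% (43.4 to 49.4) of the 1069 members over 50 kb away. ACC H3K4me2 was also lower in the near set, at 59.0% (55.5 to 62.5) against 67.5% (64.7 to 70.3), and LEC H3K4me2 at 52.9% (49.4 to 56.4) against 63.3% (60.4 to 66.2).

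The members were spread over the 19 autosomes and the X chromosome, with none among the 20 elements of the Y chromosome. Per autosome they made up from 8.41% (7.39 to 9.56) of the elements on chromosome 3 to 11.5% (10.2 to 12.9) on chromosome 11. On the X chromosome there were 89 members, or 8.56% (7.01 to 10.4) of its elements. The intervals of 19 of the 21 chromosomes included the overall share, and those of chromosomes 3 and 11 lay below and above it.

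The distance to the regions that the enhancer lists leave out was less spread among the members than among all elements. Of the members, 2266, or 53.0% (51.5 to 54.5), were over 20 kb from any excluded H3K27ac region, against 51.9% of all elements. Over 5 kb away were 80.1% (78.9 to 81.3) against 74.1%, and over 50 kb away 29.3% (27.96 to 30.7) against 32.4%. The median distance was 22525 bp, against 22025 bp, and 657 members were over 100 kb away. H3K4me2 of all 4 subregions was somewhat more frequent at members over 20 kb away than at nearer ones, at 68.9% against 63.2% in ACC, 62.7% against 57.9% in LEC, 44.3% against 40.5% in RSC and 19.5% against 16.6% in MEC. Over all elements the same shares were 51.3% against 50.7% in ACC, 42.5% against 44.6% in LEC, 44.04% against 44.6% in RSC and 19.6% against 19.5% in MEC. No intervals were computed for these shares.

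Members lay near each other more often than other elements lay near members. Of the 4276 members, 2428, or 56.8% (55.3 to 58.3), had the midpoint of another member within 100 kb, against 42.0% of the 37839 elements that are no members. Among the other 14 classes the highest share was that of elements of ACC, RSC and LEC, at 51.1% (49.8 to 52.4), followed by LEC alone at 48.6% (47.2 to 50.1) and ACC alone at 46.8% (45.5 to 48.0), and the intervals of neighbours among these 3 overlapped. Elements of ACC and RSC only had a member nearby in 37.5% (36.0 to 39.0), RSC alone in 31.8% (30.5 to 33.1), MEC alone in 30.7% (28.8 to 32.7) and RSC and MEC only in 25.4% (22.4 to 28.6). Other classes lay near their own kind too: the ratio of own to other elements was 1.35 for the members, 1.16 for ACC and RSC only, 1.26 for RSC and LEC only and 1.43 for the elements of all 4. The density of elements along the chromosome differs between classes, and its part in these shares was not tested.

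**Figure D4:**
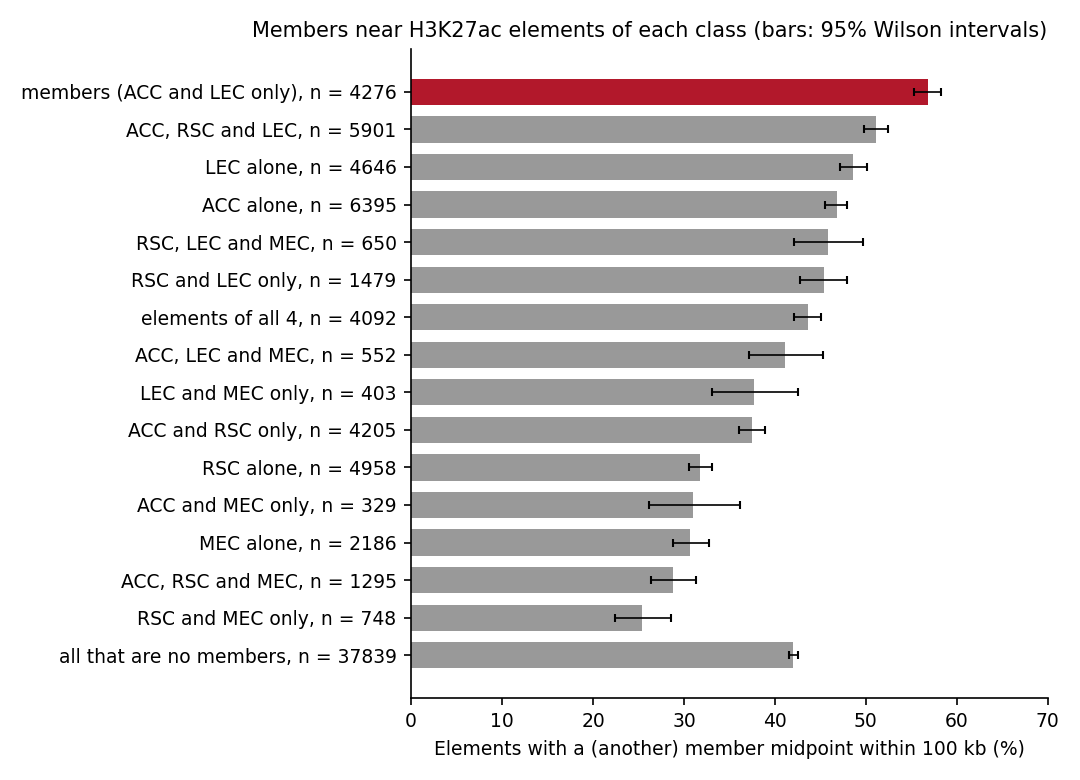
Share of elements with a member midpoint within 100 kb (x axis, %; for members, another member), by class of element (y axis, with its number), with Wilson 95% intervals. The members stand highest at 56.8%, elements of ACC, RSC and LEC follow at 51.1%, and elements of RSC and MEC only are lowest at 25.4%.

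Chained at gaps of up to 100 kb between midpoints, the members formed 886 clusters of 2 or more, 62 of them with 5 or more, and 1848 members stood alone. The clusters were named for their number of members, so that number is no finding. The densest of the 5 named clusters was chr3:89314601-89438900, where 8 of the 10 elements in 124 kb were members. ACC had 11 H3K27ac enhancer regions there covering 44.1 kb and LEC 10 covering 43.1 kb, against 2 covering 5.50 kb in RSC and 1 covering 1.95 kb in MEC. H3K4me2 leaned the same way, with 10 ACC regions and 9 LEC regions against 3 of RSC and 0 of MEC. Its largest member, chr3:89404776-89412250, was 7.38 kb wide in ACC and 6.97 kb in LEC and carried 5925 bp of H3K4me2 in ACC and 0 in the other subregions, LEC included. The last member of the row, chr3:89436176-89438900, had no H3K4me2 in any list.

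At chr15:84181876-84460825, 9 of 17 elements were members. ACC had 13 H3K27ac enhancer regions covering 54.5 kb, LEC 15 covering 57.5 kb, RSC 3 covering 7.60 kb and MEC 0. Of the 9 members, 7 carried H3K4me2 of ACC, 6 of LEC, 3 of RSC and 1 of MEC. The full H3K27ac lists added 3 regions in RSC and 2 in MEC over this span, to 6 and 2.

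**Figure D5:**
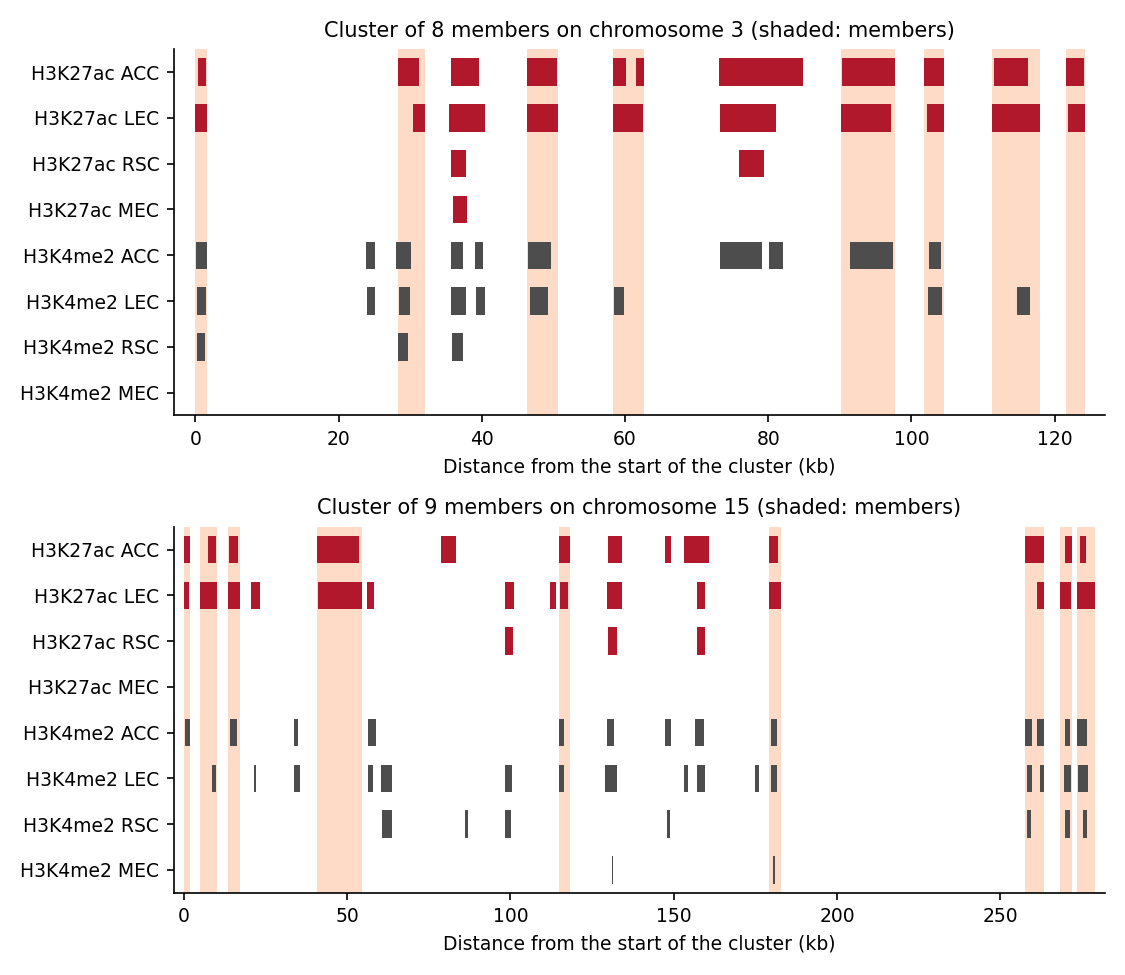
Enhancer regions of each list (rows; H3K27ac in red, H3K4me2 in grey) across the clusters on chromosome 3 (top) and chromosome 15 (bottom), against the distance from the start of the cluster (x axis, kb), with the members shaded. In the upper map ACC and LEC have 11 and 10 H3K27ac regions and RSC and MEC 2 and 1, and in the lower map 13 and 15 against 3 and 0.

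The other named clusters held members among many elements of other classes. The largest, chr12:80711551-81124875, had 12 members among 38 elements over 413 kb, with 36 H3K27ac enhancer regions of ACC and 26 of LEC against 23 of RSC and 7 of MEC. Of its members 6 carried H3K4me2 of ACC, 6 of LEC, 4 of RSC and 3 of MEC. The cluster chr5:112067976-112480550 had 11 members among 26 elements, with 21 H3K27ac regions in LEC covering 65.5 kb, 19 in ACC covering 48.0 kb, 9 in RSC and 2 in MEC. H3K4me2 was present at 9 of these members in ACC and at 8 in LEC, and at 3 in RSC and 1 in MEC, and 5 members had it in ACC and LEC alone. At chr17:84294701-84526875, by contrast, 9 members lay among 23 elements, and H3K4me2 was found at 2 of the 9 for each of ACC, LEC and RSC and at 0 for MEC. In that cluster 6 of the 9 members had no H3K4me2 in any list. Over its whole span of 232 kb, the other 14 elements included, H3K27ac covered 114 kb in ACC, 108 kb in LEC, 62.3 kb in RSC and 14.8 kb in MEC, and H3K4me2 had 15 ACC regions, 12 LEC regions, 7 of RSC and 2 of MEC.

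The 5 widest members, ranked by the narrower of their ACC and LEC widths, differed in what RSC and MEC carried. The widest, chr14:64985301-65040550, was a single ACC region of 55.2 kb and 2 LEC regions, the wider of 28.1 kb. It was covered whole by full-list H3K27ac regions of RSC and of MEC, and it carried H3K4me2 in all 4 subregions, over 26075 bp (ACC), 17975 bp (RSC), 12350 bp (LEC) and 5625 bp (MEC). H3K27ac was thus listed there in all 4 subregions, and it is a member only by the enhancer lists. The same held for RSC at the fifth widest, chr8:96383126-96393725, where a full-list RSC region covered 97.6% of the element and H3K4me2 covered 8800 bp in ACC, 6225 bp in RSC and 6150 bp in LEC.

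The other 3 of the 5 widest members had no full-list H3K27ac region in RSC or MEC. At chr3:86953051-86970700 the ACC region was 16550 bp wide and the LEC region 17650 bp, and H3K4me2 covered 14300 bp in ACC and 13500 bp in LEC, against 2300 bp in RSC and 0 in MEC. The nearest RSC enhancer region was 232 kb away and the nearest MEC one 279 kb away. At chr16:91760451-91772225 the widths were 11025 bp in ACC and 11475 bp in LEC, with 9350 bp of H3K4me2 in ACC, 8625 bp in LEC and 0 in RSC and MEC. In contrast, chr15:84222826-84236400, with 12725 bp in ACC and 13525 bp in LEC, had no H3K4me2 in any enhancer or full list. This member belongs to the cluster on chromosome 15 and lay 0.400 kb from an excluded H3K27ac region.

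A total of 769 members, or 17.98% (16.9 to 19.2), carried H3K4me2 enhancer regions in ACC and LEC and had no region of either mark in the full lists of RSC or MEC. The matching share was 14.4% (13.4 to 15.5) of the ACC-and-RSC-only elements and 3.45% (2.63 to 4.51) of the RSC-and-LEC-only elements. Other denominators turned the order of the first pair. Of the elements with H3K4me2 in both of their own subregions, 35.8% (33.8 to 37.8) of the members and 40.96% (38.5 to 43.5) of the ACC-and-RSC-only elements had neither mark in the other subregions' full lists. Whatever their own H3K4me2, 51.3% of all members and 64.7% of the ACC-and-RSC-only elements had neither mark there. For the RSC-and-LEC-only elements these shares were 8.92% (6.85 to 11.5) and 29.7%, both below those of the members. These 769 had a median width of 2525 bp, and 675 of them had regions of at least 1000 bp in both lists. They lay on 20 chromosomes, and 54.1% were over 20 kb from any excluded region. By the same ranking the widest of them was the chromosome 16 member above. Next came chr8:74789151-74796850, which was 7600 bp wide in ACC and 7700 bp in LEC but carried H3K4me2 over 1450 bp in ACC and 1525 bp in LEC. At chr3:107650576-107658850 H3K4me2 covered most of the element, 6300 bp in ACC and 6100 bp in LEC, within H3K27ac regions of 8275 bp and 7475 bp. The member chr11:118815651-118827550 leaned to LEC in both marks, with H3K27ac widths of 7275 bp in ACC and 11500 bp in LEC and H3K4me2 over 1700 bp and 6075 bp. At chr2:92563351-92571325 the widths were 7975 bp in ACC and 7000 bp in LEC, and H3K4me2 leaned to LEC, with 2600 bp against 1350 bp in ACC.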

How the data were processed

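H3K27ac and H3K4me2 were measured by chromatin immunoprecipitation and sequencing in 4 cortical subregions. Bowtie 1.1.1, bedtools 2.19.0 and the build mm9 are named in the submitters' processing notes, with no role. The peak calling, the pooling of libraries and the making of enhancer lists were not given in the sources used here. All deposited values are region starts, ends and widths in bp on a grid of 25 bp, made by the authors. They hold no signal, so neither enrichment nor depth is known. Of 17 deposited lists 16 were used, since 1 repeats another byte for byte.

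Every enhancer region was in its full list. Excluded regions are full-list H3K27ac regions in no enhancer list. Merging and overlaps were computed in Python 3.11.15 (scipy 1.17.1 for intervals) and tested on simulated lists, where 1033 of 1033 planted ACC-and-LEC-only elements were recovered. Overlap means at least 1 bp. Intervals after percentages are Wilson 95% intervals. They cover counting error only and treat elements as independent, which neighbours are not. No test was made, since elements are not replicates of a subregion.

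The members, classes and settings were chosen with earlier results of these data known. Named regions are the 5 clusters with the most members (ties by smaller span), the 5 members with the largest value of the narrower of their ACC and LEC widths, and by the same measure 5 of the members with H3K4me2 in ACC and LEC and neither mark in the full lists of RSC and MEC, none of them on chromosome 18. The gene and sequence tables used GRCm38.p6 and not mm9, so no gene or sequence was assigned.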

Additional observations from a re-analysis of the deposited data

How the results depend on the processing

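The number of members stayed between 3996 (regions of at least 1000 bp) and 4828 (MEC left out of the rule) over 6 other settings, against 4276. The widths kept their medians within their intervals. H3K4me2 shares moved with the settings. With full H3K4me2 lists they were 68.5% in ACC, 62.8% in LEC and 44.0% in RSC. In members of 1000 to 3000 bp they were 62.2%, 57.2% and 40.5%. With each list cut to its 15041 widest regions they were 34.4% in ACC, 37.2% in LEC and 23.7% in RSC, so LEC then stood above ACC, and both stayed above RSC under all 5 settings. Cutting the lists leaves fewer regions to overlap by construction. Full-list regions of RSC or MEC within 1000 bp were found at 4.09% of members. Another member lay within 20 kb of 20.6% and within 500 kb of 89.6%. Members over 5 kb from any excluded region made up 80.1% (all elements 74.1%), and over 50 kb 29.3% (32.4%). No paired analysis was possible because the deposited lists hold no value per library and carry no replicate numbers, so no library could be left out either. Depth is unknown, and an absence from the RSC or MEC list may be a region below the detection of that list.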

Other observations

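Along the chromosome, members, elements of LEC alone, elements of ACC alone and elements of ACC, RSC and LEC took a larger share of the places next to a member than of all elements. There were 8547 places directly before or after a member, filled by 7948 distinct elements, since an element between members counts at each. Of these places 15.5% (14.7 to 16.3) held members, against 10.2% of all elements. Elements of LEC alone made up 14.1% (13.4 to 14.9) of the places and 11.03% of all elements, elements of ACC alone 17.7% (16.9 to 18.6) against 15.2%, and elements of ACC, RSC and LEC 16.3% (15.5 to 17.05) against 14.01%. Elements of RSC alone made up 7.56% (7.02 to 8.14) against 11.8%, and elements of MEC alone 3.12% (2.78 to 3.51) against 5.19%. Elements of ACC and RSC only made up 7.96% (7.40 to 8.55) against 9.98%. The longest row of members with no other element between them held 5 members over 132 kb, at chr1:191455151-191586750.

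The 124 members overlapped by a full-list H3K27ac region of RSC or MEC differed from the others in H3K4me2. ACC H3K4me2 was at 51.6% of them and LEC at 43.5%, against 66.7% and 60.9% of the other 4152, while RSC was at 50.8% against 42.2% and MEC at 23.4% against 17.97%. Within these 124 the RSC share and the ACC share were close to each other. The 124 were also wider, with a median of 3150 bp against 2250 bp. No intervals were computed for these shares, so the smaller gaps in RSC and MEC may lie within counting error.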
